A study of Arabidopsis thaliana with 2 samples.

Results

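The last 500 bp of protein-coding genes were followed in bisulfite-sequenced rosette leaves of *A. thaliana* plants homozygous for *ibm1-1*, 1 library from Ler-0 and 1 from Col-0. Both libraries came from the first generation of homozygous plants, 3 weeks old and grown on plates under long days (16 h light, 8 h dark, 21°C), with 150 ng of DNA as input. To obtain the Ler-0 line, the mutation had been moved from Col-0 by 4 backcrosses. Both groups therefore carry the same mutant allele, no wild-type library was analysed here, and no difference described below has a replicate check. A gene end was the 500 bp before the annotated end of a TAIR10 protein-coding gene of 2 kb or more on chromosomes 1 to 5, and the 500 bp past that end served as its contrast. An end was kept if at least 4 of its CpHpG cytosines (H is A, C or T) had reads in Col-0 and their mean was at least 4 reads. Of 27444 protein-coding genes, 14444 were long enough, and 12989 ends passed in Col-0. In Ler-0, 355 of these had no unique place and 1396 were placed but fell under the same limits, which left 11238 ends with values in both libraries. The choice used annotation and read numbers only, not methylation. Just inside the read limit in Col-0, 550 ends with 4 to under 4.5 reads per cytosine had 3.35% CpHpG methylation, and just outside it 438 ends with 3.5 to under 4 reads had 2.91%.

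IBM1 is a JmjC domain histone demethylase that removes methylation of lysine 9 of histone H3 from transcribed genes. CpG methylation is copied at replication by MET1 and is common in the bodies of expressed plant genes, which are known to carry less of it close to their start and their end. CpHpG methylation is maintained by CMT3, which binds methylated H3K9, and the histone methyltransferase KYP binds methylated CpHpG in turn. Without IBM1, CpHpG methylation accumulates in gene bodies. A CpCpG site holds both contexts at once, since its internal cytosine is followed by G and its external cytosine is in the CpHpG context.

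The CpCpG sites below show what was read at a gene end. For each named gene the site with the most reads was taken among those with at least 5 reads on both cytosines in both libraries, which gave 17 sites, and the 13 inside coding sequence are printed. Each line gives 25 bases of the TAIR10 reference (RefSeq) 5′ to 3′ on the strand of the site, with CCG in capitals. The first capital C is the external cytosine and the next one the internal cytosine.
ABCC15: gatcattcgagCCGgcaaagtgatt
PANB2: cgcttaagaatCCGtccaggtcgct
FUT4: tccttactcctCCGactcatggatg
AT1G47370: ttaaatgagtcCCGgaagaacgtag
AT5G28345: ctgcgagatagCCGggcagatgagc
YSL4: gttcgtaggaaCCGtgataatgctc
AT5G28910: tcttgccacttCCGtgtaatagaat
AT2G40955: gttcatacactCCGtttcatcaatt
RKF2: ctccctttcaaCCGaggatcgatag
AT4G18150: cttgacggaaaCCGggaggctgctg
AT1G11590: actctccactaCCGcgaatatcaaa
EPR1: gaggaggagtaCCGtatccaccttg
CMT1: attcaagtatcCCGaatgcatgcag

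The PANB2 site (chr3:22771784-22771808, plus strand) lies 391 bases before the end of the gene. Its internal cytosine had 11 of 11 methylated reads in Ler-0 and 1 of 10 in Col-0, and its external cytosine 8 of 11 and 0 of 11. The FUT4 site (chr2:6709442-6709466, minus strand) had 26 of 27 internal and 15 of 27 external methylated reads in Ler-0, against 0 of 14 at both cytosines in Col-0. At AT1G47370 (chr1:17366055-17366079, minus strand) the internal cytosine had 22 of 25 methylated reads in Ler-0 and 1 of 15 in Col-0, and the external 20 of 26 and 0 of 15. The ABCC15 site (chr3:22561540-22561564, minus strand) had 5 of 5 internal but 1 of 5 external methylated reads in Ler-0, against 0 of 6 at both cytosines in Col-0. The internal cytosine was thus methylated in Ler-0 at all 4 sites and the external one in most reads at 3 of them, with at most 1 methylated read at either cytosine in Col-0.

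The next 4 sites stand the other way round. At AT5G28345 (chr5:10318094-10318118, plus strand) the internal cytosine had 0 of 14 methylated reads in Ler-0 and 20 of 20 in Col-0, and the external 1 of 12 and 15 of 20. At YSL4 (chr5:16423517-16423541, plus strand) the internal cytosine had 0 of 15 and 48 of 54, and the external 0 of 16 and 12 of 50, which in Col-0 is 88.9% at the internal and 24.0% at the external cytosine. At AT5G28910 (chr5:10930849-10930873, plus strand) Ler-0 had 0 of 9 at both cytosines, against 13 of 16 internal and 10 of 16 external in Col-0. At AT2G40955 (chr2:17094850-17094874, plus strand) Ler-0 had 0 of 10 at both cytosines, against 4 of 5 internal and 1 of 5 external in Col-0. The sites of RKF2 (chr1:6592398-6592422, minus strand) and AT4G18150 (chr4:10053587-10053611, minus strand) were methylated in both libraries. RKF2 had 46 of 47 internal and 35 of 47 external reads in Ler-0, against 40 of 41 and 37 of 43 in Col-0. AT4G18150 had 30 of 30 and 28 of 31 in Ler-0, against 29 of 30 and 22 of 30 in Col-0.

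The last 3 sites lie in genes named for a higher level before than past the end. AT1G11590 (chr1:3894438-3894462, plus strand) had 52 of 52 internal and 33 of 48 external methylated reads in Ler-0, against 55 of 56 and 35 of 54 in Col-0. EPR1 (chr2:11715631-11715655, minus strand) had 20 of 21 internal and 4 of 21 external in Ler-0, against 11 of 23 and 3 of 23 in Col-0. CMT1 (chr1:30346789-30346813, plus strand) had 8 of 9 internal and 3 of 9 external in Ler-0, against 0 of 8 at both cytosines in Col-0. External methylation was thus weak at EPR1 in both libraries, as at ABCC15, YSL4 and AT2G40955 in the library with the methylated internal cytosine. The genes were chosen for the levels of their ends, so these reads illustrate the levels and test nothing.

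The Ler-0 library held 313387873 calls on 47623059 cytosines and the Col-0 library 371653818 on 43080083, a mean of 6.58 and 8.63 calls per cytosine. In the last 500 bp a CpHpG cytosine had a mean of 7.58 reads in Ler-0 and 9.10 in Col-0. On the chloroplast, which is taken to be unmethylated, 1.39% of calls were methylated in Ler-0 and 1.34% in Col-0, so levels near these are not distinguishable from incomplete conversion. On chromosome 3 between 0.25 and 8.5 Mb, only 8.37% of cytosines specific to Ler-0 had reads in the Ler-0 library, against 81.7% elsewhere. The stretch holds *IBM1* and 1073 of the 11238 ends (9.55%), and for these the Ler-0 values may not be those of Ler-0 sequence. Inside it the ends had 5.12% CpHpG in Ler-0 and 4.08% in Col-0, and outside it 6.48% and 5.61%. Levels below are the percentage of calls that were methylated, pooled over the ends, with 95% Wilson intervals or medians over ends. The intervals cover counting error only, since calls on 1 read are not independent.

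Most gene ends carried little CpHpG methylation in either *ibm1-1* library. The pooled CpHpG level of the last 500 bp was 6.35% (6.32–6.38%) in Ler-0 and 5.46% (5.43–5.48%) in Col-0, and the median end had 2.60% and 2.44%. CpG methylation was 20.5% (20.4–20.5%) in Ler-0 and 21.5% (21.4–21.5%) in Col-0, with medians of 2.37% and 2.44%, so a minority of ends held most of it. CpHpH methylation was 1.54% in both libraries, close to the chloroplast level. Within CpHpG, CpApG had 7.04% in Ler-0 and 6.02% in Col-0, CpTpG 6.29% and 5.17%, and the external cytosine of CpCpG 4.67% and 4.65%. Ler-0 was thus higher at CpApG by 1.02 and at CpTpG by 1.11 percentage points, while at CpCpG the intervals of the libraries overlapped (4.60–4.73% and 4.59–4.71%). Raising the limit to 8 reads per cytosine, which keeps deeper windows, gave 9.34% in Ler-0 and 7.90% in Col-0, and whether read depth itself moves the level was not tested.

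Over single ends the distribution was skewed. In Ler-0, 4085 of the 11238 ends had under 2% CpHpG, 4918 had 2 to under 5%, 1266 had 5 to under 10%, 593 had 10 to under 25%, 296 had 25 to under 50% and 80 had 50% or more. The same classes held 4214, 5261, 992, 493, 216 and 62 ends in Col-0. Ends under 5% thus made up 80.1% in Ler-0 and 84.3% in Col-0, although 34.5% and 35.5% of the ends had at least 10% CpG methylation.

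**Figure D1:**
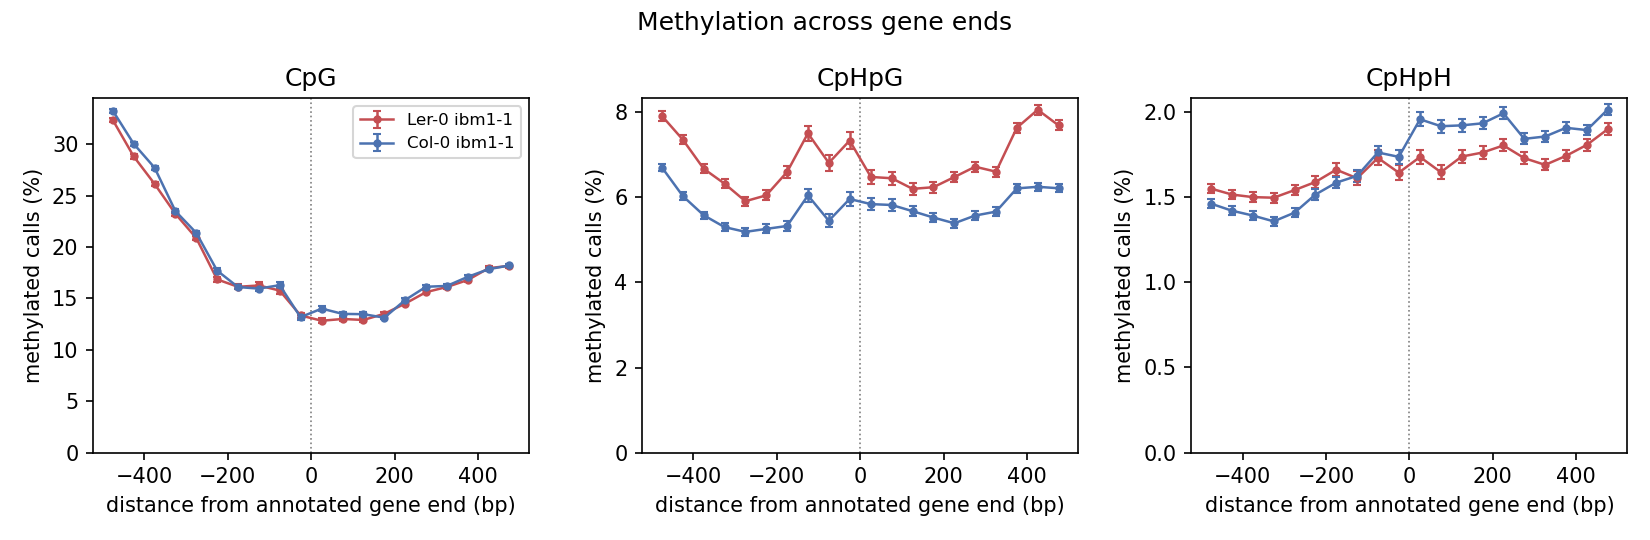
Methylated calls (%) in CpG, CpHpG and CpHpH in 50-bp steps from 500 bp before to 500 bp past the annotated gene end (dotted line), pooled over the 6796 ends with both windows covered in both libraries. Points are pooled levels of Ler-0 *ibm1-1* and Col-0 *ibm1-1*, and bars are 95% Wilson intervals. CpG methylation fell to 13.3% in Ler-0 and 13.2% in Col-0 just before the end, whereas CpHpG stayed between 5.19% and 8.06% throughout.

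CpG methylation declined steeply towards the gene end while CpHpG methylation hardly changed. Over the 6796 ends whose 500 bp past the end were also covered in both libraries, CpG methylation of the first 50-bp step, 500 bp before the end, was 32.3% in Ler-0 and 33.3% in Col-0. In the last step before the end it was 13.3% in Ler-0 and 13.2% in Col-0, and it stayed between 12.8% and 13.5% in Ler-0 and between 13.1% and 14.01% in Col-0 over the next 4 steps, past the end, before reaching 18.2% in both libraries 500 bp past it. CpHpG methylation of the first step was 7.91% in Ler-0 and 6.70% in Col-0, its minimum within the gene lay at 300 to 251 bp before the end with 5.91% and 5.19%, and the last step had 7.33% and 5.96%. CpHpH methylation moved between 1.5% and 1.90% in Ler-0 and between 1.36% and 2.01% in Col-0. Reads per CpHpG cytosine fell along the same steps, to 5.08 at the last step in Ler-0 against 9.75 at the first, and to 6.11 against 11.6 in Col-0, and their part in these levels was not tested. The 3465 of these genes with at least 10% CpG methylation in their middle had 42.7% (Ler-0) and 42.0% (Col-0) CpG methylation at the first step and 16.2% and 15.3% at the last, beside 9.75% and 7.86% CpHpG at the first and 8.56% and 6.71% at the last.

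Across the boundary, the CpG contrast was large and the CpHpG contrast was not. The last 500 bp had 23.4% CpG methylation and the 500 bp past the end 15.6% in Ler-0, and 24.0% and 15.9% in Col-0. CpHpG methylation was 6.84% before and 6.97% past the end in Ler-0, and 5.72% and 5.84% in Col-0, differences of −0.13 and −0.12 points whose sign turned with the aligner and other choices. The median difference over ends was positive, 0.323 points in Ler-0 and 0.223 in Col-0. A difference of at least 20 points with the higher level before the end was seen at 154 ends (2.27%) in Ler-0 and 108 (1.59%) in Col-0, and with the higher level past the end at 215 (3.16%) and 200 (2.94%). CpHpH methylation was 1.56% before and 1.76% past the end in Ler-0, and 1.49% and 1.92% in Col-0. CpHpG relative to CpG was therefore lower before the end, a ratio of 0.293 against 0.446 past it in Ler-0, and 0.238 against 0.369 in Col-0.

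At the other end of the gene both contexts were lower still. For the 8723 genes whose first 500 bp were covered too, the last 500 bp had 20.3% CpG methylation against 3.37% in the first 500 bp in Ler-0, and 21.1% against 3.33% in Col-0. CpHpG was 6.32% against 3.26% in Ler-0 and 5.35% against 2.91% in Col-0.

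The middle of the same genes carried several times more CpHpG methylation than their last 500 bp. For 10018 genes with both windows covered in both libraries, the last 500 bp had 6.49% CpHpG (6.46–6.52%) and the middle 500 bp 23.5% (23.5–23.5%) in Ler-0, and in Col-0 5.47% (5.45–5.5%) and 16.7% (16.7–16.8%). The middle was thus 3.62-fold higher in Ler-0 and 3.06-fold higher in Col-0. CpG methylation was 21.2% in the last 500 bp against 39.4% in the middle in Ler-0 and 21.9% against 37.6% in Col-0. As a ratio the CpG contrast was smaller, with a middle 1.86-fold higher in Ler-0 and 1.72-fold in Col-0. In points it was larger. The end minus the middle was −18.2 points for CpG and −17.0 for CpHpG in Ler-0, and −15.7 and −11.3 in Col-0. In CpHpG, Ler-0 exceeded Col-0 by 1.02 points at the end and by 6.76 points in the middle, 1.19-fold and 1.40-fold. The end was lower than the middle by at least 20 points in 2487 genes (24.8%) in Ler-0 and 1731 (17.3%) in Col-0, and higher by as much in 118 and 101.

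The contrast with the middle was larger in longer genes, whose middle lies further from the end. The middle had more CpHpG methylation the longer the gene, and the end did not. In 5113 genes of 2 to under 3 kb the last 500 bp had 6.71% and the middle 12.3% in Ler-0, and 5.80% and 9.46% in Col-0. In 2598 genes of 3 to under 4 kb the end had 6.27% and the middle 24.5% in Ler-0, and 5.04% and 17.8% in Col-0. In 1677 genes of 4 to under 6 kb the values were 6.44% at the end and 35.7% in the middle in Ler-0, and 5.5% and 25.7% in Col-0. In the 630 genes of 6 kb or more the end had 5.76% and the middle 45.1% in Ler-0, and 4.5% and 32.2% in Col-0, which is 7.84-fold and 7.17-fold more in the middle. CpG methylation of the end was 23.5% in Ler-0 and 24.4% in Col-0 in the longest class, against 20.2% and 21.3% in the shortest, whereas in the middle it was 66.9% and 62.8% against 27.2% and 27.6%.

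**Figure D2:**
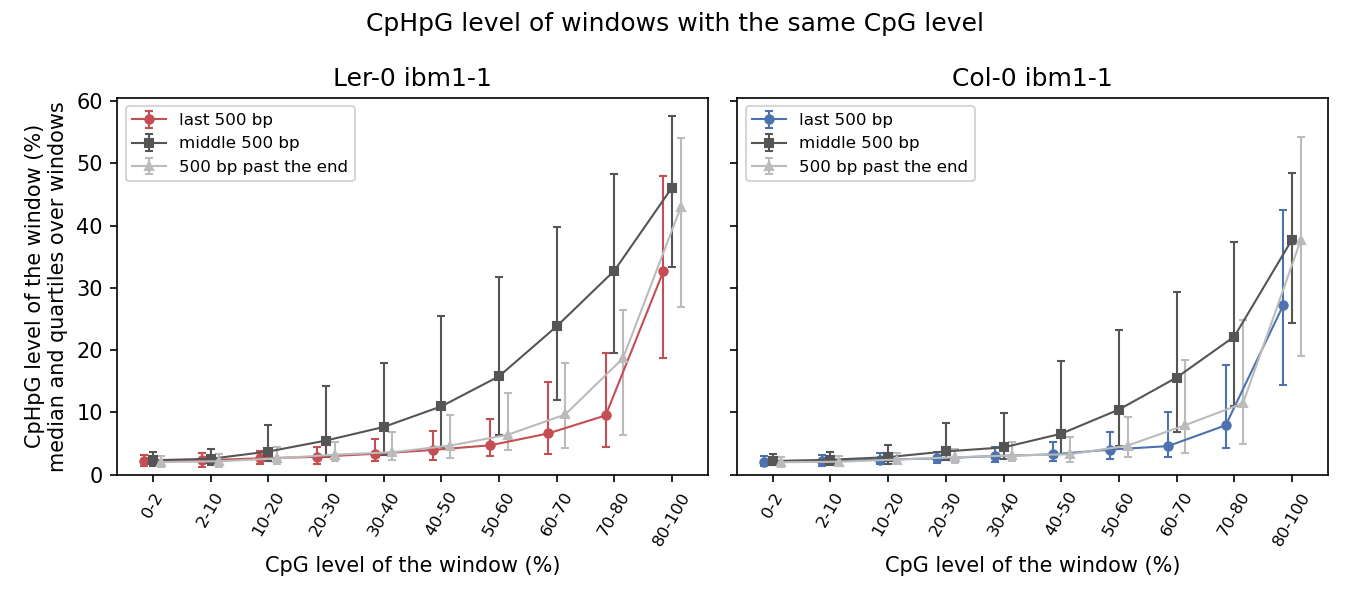
CpHpG level (%) of windows grouped by their own CpG level (%) in Ler-0 *ibm1-1* (left) and Col-0 *ibm1-1* (right), for the last 500 bp, the middle 500 bp and the 500 bp past the end. Points are medians and bars quartiles over windows. Between 60 and 70% CpG the last 500 bp had a median of 6.60% (Ler-0) and 4.58% (Col-0) CpHpG, against 23.8% and 15.6% in the middle.

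Gene ends also had less CpHpG than gene middles of the same CpG level. Among windows with 60 to under 70% CpG methylation, the median CpHpG level of 387 ends in Ler-0 was 6.60%, against 23.8% in 867 middles and 9.66% in 173 windows past the end. In Col-0 it was 4.58% in 407 ends, 15.6% in 810 middles and 7.95% in 165 windows past the end. Among windows of 70 to under 80% CpG the ends had 9.51% in Ler-0 and 7.92% in Col-0, against 32.8% and 22.2% in the middles. At 80% CpG or more the gap narrowed, with 32.7% in 317 ends and 46.1% in 1056 middles in Ler-0, and 27.2% in 333 ends and 37.7% in 942 middles in Col-0. Below 10% CpG the medians of ends and middles lay between 2.10% and 2.54% in both libraries, but the pooled levels were higher in middles. Under 2% CpG, ends had 2.63% and middles 4.24% in Ler-0, and 2.40% and 3.20% in Col-0. From 2 to under 10% CpG the values were 2.87% and 5.29% in Ler-0, and 2.54% and 3.80% in Col-0. The quartiles of ends and middles overlapped at most CpG levels, so single windows of either kind can be high or low.

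Pooled over the last 500 bp, the same was seen within short steps. Single 50-bp steps with at least 10 CpG calls and at least 80% CpG methylation numbered 4565 in the last 500 bp in Ler-0 and 4898 in Col-0. Their CpHpG level was 21.7% in Ler-0 and 17.9% in Col-0, against 39.9% and 31.6% in 14019 and 13910 such steps of gene middles and 28.3% and 24.0% in 2792 and 3010 such steps past the end. Reads per CpHpG cytosine in these steps were 12.7 in Ler-0 and 14.6 in Col-0 at the end, close to 14.4 and 15.2 in the middle. Along the last 500 bp such steps became rarer but carried more CpHpG methylation. In Ler-0 the 1048 steps farthest from the end had 18.7% and the 125 steps next to it 35.4%, and in Col-0 1084 steps had 15.4% and 118 steps had 31.2%. Next to the end the gap to gene middles was thus small, with 35.4% against 39.9% in Ler-0 and 31.2% against 31.6% in Col-0.

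Genes with a strongly methylated middle mostly had an end under 5% CpHpG, although the pooled level of their ends was above that of all ends. In Ler-0, 859 of the 10018 genes (8.57%) had at least 50% CpHpG in the middle, and in Col-0 344 (3.43%). Their last 500 bp had a median of 3.41% CpHpG in Ler-0 and 3.17% in Col-0, and 564 (65.7%) and 234 (68.0%) of these ends were under 5%, beside 79.6% and 84.1% of the ends of all 10018 genes. Pooled, these ends had 12.7% (12.6–12.9%) in Ler-0 and 15.2% (15.0–15.4%) in Col-0, beside 6.49% and 5.47% over all 10018. The end reached 50% as well in 33 of them (3.84%) in Ler-0 and 22 (6.40%) in Col-0, beside 0.739% and 0.499% over all. In CpG, the ends of these 859 and 344 genes had medians of 15.1% in Ler-0 and 14.8% in Col-0.

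CpG methylation was higher in coding sequence than in 3′ UTR all along the last 500 bp, whereas for CpHpG the order depended on the distance from the end. Of the bases of the covered ends, 36.3% were coding sequence, 9.47% intron and 54.2% 3′ UTR. Coding sequence had 24.1% CpG methylation in Ler-0 and 25.6% in Col-0, introns 22.7% and 22.6%, and 3′ UTRs 12.1% and 12.4%. CpHpG was 6.67% in Ler-0 and 5.82% in Col-0 in coding sequence, 7.86% and 6.42% in introns and 5.21% and 4.45% in 3′ UTRs. Since 3′ UTRs lie nearer to the end, the parts were also compared within 50-bp steps. Coding sequence exceeded 3′ UTR in CpG in all 10 steps in both libraries, and in CpHpG in 8 of the 10. At 250 to 201 bp before the end, CpG methylation was 17.3% in coding sequence against 9.61% in 3′ UTR in Ler-0, and 18.5% against 10.7% in Col-0. CpHpG there was 6.34% against 4.80% in Ler-0 and 5.83% against 4.06% in Col-0. In the 2 steps farthest from the end the CpHpG order was reversed. At 500 to 451 bp it was 7.20% in coding sequence against 7.95% in 3′ UTR in Ler-0 and 6.20% against 6.59% in Col-0, and at 450 to 401 bp 6.41% against 6.85% and 5.55% against 5.67%. In the last 50 bp, 624 ends that still held coding sequence had 40.1% CpG and 16.0% CpHpG in it in Ler-0, and 40.5% and 15.2% in Col-0, while 3′ UTR had 7.15% CpG and 5.2% CpHpG in Ler-0 and 7.38% and 4.40% in Col-0. Reads per CpHpG cytosine were 7.50 in Ler-0 and 8.81 in Col-0 in that coding sequence, against 4.21 and 5.17 in 3′ UTR. The parts of a step come from different sets of ends, here 624 with coding sequence and 10725 with 3′ UTR. The 511 ends with no annotated 3′ UTR, described next, give no value to 3′ UTR. The part and the set of genes therefore cannot be told apart.

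The 511 ends with no annotated 3′ UTR (4.55%) stood apart. Their pooled CpHpG level was 18.1% in Ler-0 and 15.1% in Col-0 and their CpG level 42.3% and 41.4%, although the median end had only 3.32% and 3.00% CpHpG. With a 3′ UTR of 100 to under 200 bp, CpHpG was 5.99% in Ler-0 and 5.03% in Col-0 over 2277 ends, with 200 to under 300 bp 5.14% and 4.59% over 3760 ends, and with 400 to under 500 bp 4.31% and 3.80% over 857 ends. It was 7.28% in Ler-0 and 6.0% in Col-0 over the 1245 ends with 500 bp of 3′ UTR or more.

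Base composition changed along the same bases. A and T made up 58.8% of the first step and 68.8% of the last 50 bp on the strand of the gene, against 61.1% in gene middles. The polyadenylation signal AATAAA, read on the strand of the gene and counted where all its bases lie in the step, was found in the last 50 bp of 9.73% of the 12989 ends. It was found in 1.66% of the first steps, in 6.45% of the 50 bp just past the end and in 2.02% of 50-bp steps in gene middles. Its reverse complement TTTATT was in 7.58% of the last steps and in 3.78% of middle steps. The number of CpG cytosines per end and step on both strands was 1.64 in the last step of Ler-0 and 1.66 of Col-0, against 2.62 and 2.63 in the first.

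**Figure D3:**
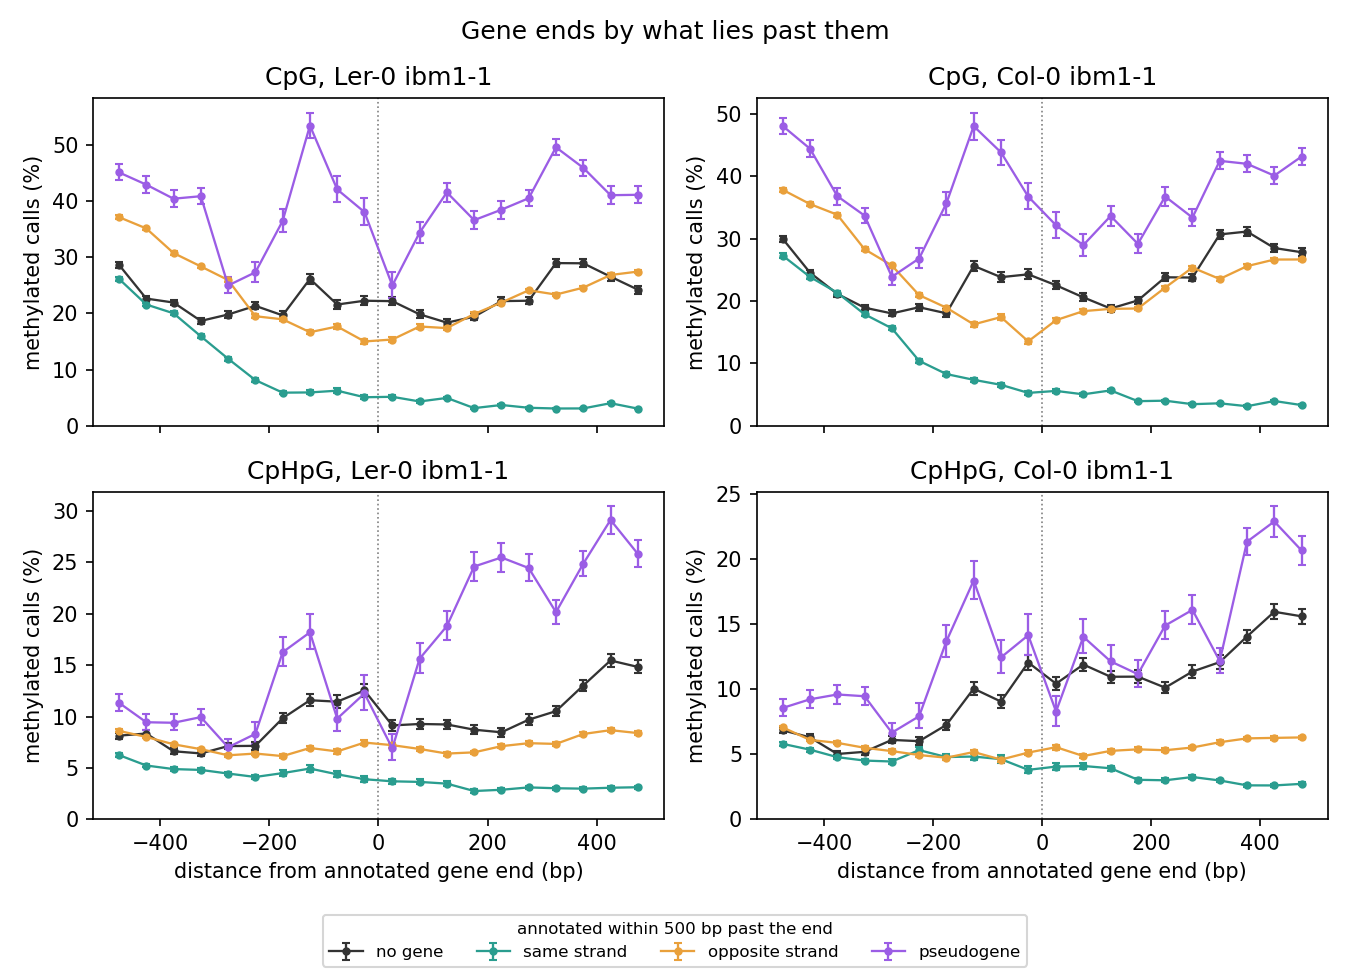
CpG (top) and CpHpG (bottom) methylated calls (%) in 50-bp steps around the gene end (dotted line) in Ler-0 *ibm1-1* (left) and Col-0 *ibm1-1* (right), by what is annotated within 500 bp past the end. Points are pooled levels and bars 95% Wilson intervals. Ends followed by a gene on the same strand had 3.12% (Ler-0) and 3.09% (Col-0) CpHpG past the end, and those followed by a pseudogene 23.1% and 16.3%.

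The size and sign of the contrast differed with what is annotated past the end. For 1976 ends followed within 500 bp by a gene on the same strand, CpHpG was 4.95% before and 3.12% past the end in Ler-0 and 4.95% and 3.09% in Col-0, and CpG was 15.9% and 3.59% in Ler-0 and 17.6% and 3.95% in Col-0. For 3345 ends that face a gene on the opposite strand, CpHpG was 7.19% before and 7.58% past the end in Ler-0 and 5.64% and 5.76% in Col-0. CpG was 27.4% and 23.1% in Ler-0 and 28.0% and 23.4% in Col-0, and the 500 bp past such an end can hold the last part of the neighbour. For 1027 ends with no gene within 500 bp, CpHpG was 8.16% before and 10.8% past the end in Ler-0 and 6.65% and 12.3% in Col-0, and CpHpH was 2.07% and 3.04% in Ler-0 and 2.05% and 4.68% in Col-0. At 146 ends followed by a pseudogene, CpHpG was 10.5% before and 23.1% past the end in Ler-0 and 10.1% and 16.3% in Col-0. The 235 ends followed by an RNA gene alone had 9.04% before and 7.05% past the end in Ler-0 and 6.44% and 6.27% in Col-0, and the 67 ends with genes on both strands had 6.61% and 3.01% in Ler-0 and 6.33% and 3.06% in Col-0. The near equality of CpHpG on both sides of the pooled gene end was therefore a mean of unlike classes. Ends with no gene past them passed the read limits less often and count for less in it.

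Most CpCpG sites of the gene ends were unmethylated, and where the internal cytosine was methylated the external one mostly was not. Of 31517 sites in the last 500 bp with at least 5 reads on both cytosines in Ler-0, 78.7% were unmethylated at both cytosines, 17.0% (16.6–17.4%) were CpmCpG, with the internal cytosine methylated at 50% or more, and 3.86% (3.66–4.08%) were mCpmCpG, with the external cytosine at 25% or more as well. In Col-0, 77.6% of 35278 sites were unmethylated at both, 18.3% (17.9–18.7%) were CpmCpG and 3.78% (3.58–3.98%) mCpmCpG. Unmethylated here means under these limits, not free of methylated reads. An external cytosine at 25% or more beside an internal one under 50% was seen at 0.444% of sites in Ler-0 and 0.383% in Col-0. With the external cytosine at 50% or more it was seen at 0.0159% and 0.00567%. Over the genes with both windows covered, the external cytosine was methylated at 18.5% of sites with a methylated internal cytosine in the last 500 bp, against 45.1% in the middle, in Ler-0, and at 16.6% against 38.3% in Col-0. With the external cytosine called at 50% or more these shares were 6.53% against 21.4% in Ler-0 and 5.48% against 16.4% in Col-0. Where the 500 bp past the end were covered, the shares at 25% were 19.1% before and 26.9% past the end in Ler-0 and 17.4% and 27.8% in Col-0, and at 50% they were 6.48% and 10.1% in Ler-0 and 5.65% and 12.1% in Col-0. As a level over all reads, the external cytosine at methylated internal cytosines had 15.0% in the last 500 bp against 30.1% in the middle in Ler-0, and 13.7% against 25.9% in Col-0. At unmethylated internal cytosines of the last 500 bp it was 1.63% in Ler-0 and 1.64% in Col-0, near the chloroplast level.

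Ends with at least 50% CpHpG methylation were few. They numbered 80 in Ler-0 (0.712%, 0.572–0.885%) and 62 in Col-0 (0.552%, 0.431–0.707%), of which 34 were shared and 108 occurred in at least 1 library. Only 7 of the Ler-0 ends had under 5% in Col-0, and 6 of the Col-0 ends had under 5% in Ler-0. CpHpH methylation of at least 5% accompanied 66 of the 80 in Ler-0 and 54 of the 62 in Col-0, with medians of 10.8% and 14.7% CpHpH, and CpG reached 80% in 67 and 53. Over all 11238 ends the upper quartile was 1.45% CpHpH and 25.9% CpG in Ler-0, and 1.38% and 27.4% in Col-0. The middle of the genes with an end of at least 50% CpHpG, where covered, had a median of 45.5% CpHpG in Ler-0 and 47.4% in Col-0. No 3′ UTR was annotated for 36 (45.0%) and 21 (33.9%) of them, against 4.55% of all ends, and no gene lay within 500 bp past 36 (45.0%) and 26 (41.9%), against 31.7% of all ends.

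The group is illustrated by the 5 ends with the highest mean of both libraries among 9018 deeper ends, where each library has 10 or more CpHpG cytosines with 5 or more reads. PEX10, a membrane protein of peroxisome biogenesis, had 81.7% (75.8–86.4%) CpHpG in Ler-0 and 73.0% (68.0–77.5%) in Col-0, with 7.41% and 7.94% CpHpH, and its 500 bp (chr2:11217142-11217641) are 3′ UTR throughout. The end of AT4G28570, a long-chain fatty alcohol dehydrogenase family gene (chr4:14122117-14122616), had 70.5% and 83.9% CpHpG and 31.4% and 51.3% CpHpH, and 311 of its bases are intron. The receptor-like kinase gene RKF2 (chr1:6592263-6592762) had 77.2% CpHpG in Ler-0 and 74.4% in Col-0, and its middle was as high with 74.5% and 67.9%. AT4G18150, a putative serine/threonine kinase gene (chr4:10053532-10054031), had 75.6% and 66.5% CpHpG. AT1G62310, a gene with a JmjC domain like that of IBM1 (chr1:23033403-23033902), had 67% and 71.2% at its 3′ UTR but 1.48% and 3.17% in its middle, so that here the end was far above the middle. PEX10 and AT4G28570 were also higher at the end than in the middle, where PEX10 had 21.4% and 8.33% and AT4G28570 13.4% and 3.49% in Ler-0 and Col-0.

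**Figure D4:**
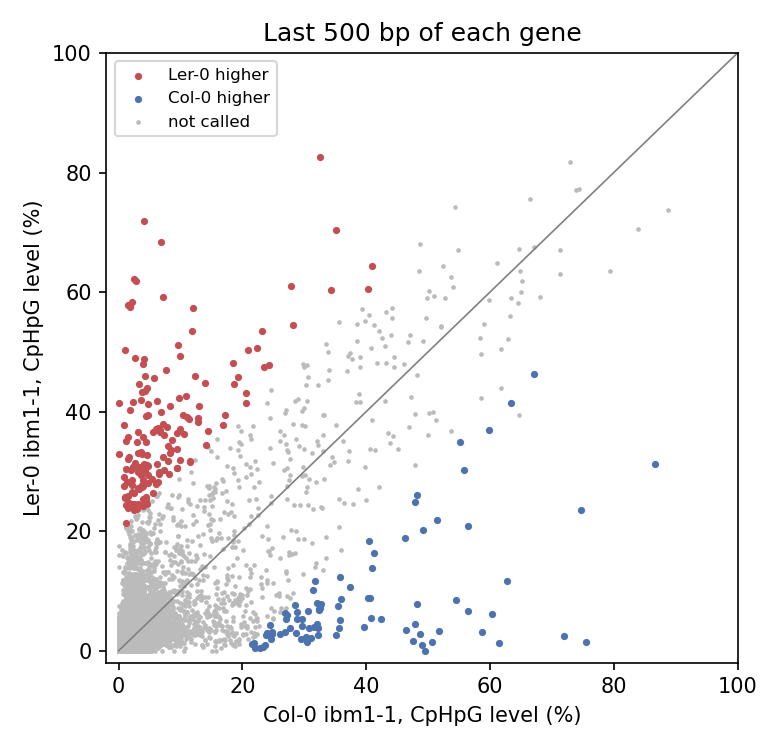
CpHpG level (%) of the last 500 bp of each of the 11238 genes in Ler-0 *ibm1-1* (vertical axis) against Col-0 *ibm1-1* (horizontal axis), with the line of equal levels. Coloured points are ends called different by Fisher's exact test with a difference of at least 20 points, 161 higher in Ler-0 and 87 higher in Col-0. Most points lie near the origin.

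Differences of at least 20 points between the libraries were called less often at gene ends than in gene middles, but more often than in the first 500 bp. Against the 500 bp past the end the order depended on the direction of the difference. CpHpG calls of each window (last, middle and first 500 bp and 500 bp past the end) were compared by Fisher's exact test, two-sided, adjusted over all 42746 windows by the Benjamini-Hochberg method. A window was called at an adjusted p under 0.01 and a difference of at least 20 points, so it needed at least 20% CpHpG in 1 library. High levels were rarer at ends. Over the 10018 genes with both windows, at least 50% was found at 0.739% of ends and 8.57% of middles in Ler-0, and at 0.499% and 3.43% in Col-0. The share of calls among windows high enough to be called was not determined. The test compares 2 libraries and not 2 ecotypes. Ler-0 was higher at 161 of 11238 ends (1.43%, 1.23–1.67%), against 3.96% of all windows, and Col-0 was higher at 87 (0.774%, 0.628–0.954%), against 1.24% of all windows. In gene middles 1407 of 12525 windows (11.2%) were called higher in Ler-0 and 337 (2.69%) higher in Col-0. Past the end the calls were 98 (1.21%) and 77 (0.952%) of 8090, and in the first 500 bp 26 (0.239%) and 28 (0.257%) of 10893. Of the called ends, 13 of the 161 and 4 of the 87 lay in the chromosome 3 stretch.

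At ends called higher in Ler-0 the median CpHpG level was 34.9% in Ler-0 and 4.64% in Col-0, and the median CpG level 75.4% and 36.4%. CpG was higher in Ler-0 by at least 20 points as well at 88 of the 161 and within 20 points at 70. At ends called higher in Col-0 the medians were 5.23% CpHpG in Ler-0 and 35.5% in Col-0, and 25.8% and 80.4% CpG, with CpG also higher in Col-0 at 59 of 87 and within 20 points at 27. The share of all ends with such a CpG difference was not determined, so these counts only describe the called ends. The middle of the gene was called in the same direction in 42 of 147 tested genes (28.6%) for Ler-0 and 16 of 71 (22.5%) for Col-0, beside 11.6% and 2.73% of the middles of all 10018 genes tested in both windows. The middle was called in the opposite direction in 2 of 147 for Ler-0 and 3 of 71 for Col-0. Of all middles, 2.73% and 11.6% were called in those directions.

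The ends with the largest differences were chosen for them, so their values are a description. The end of ABCC15, an ABC transporter gene of the multidrug resistance-associated class (chr3:22561217-22561716, plus strand), had 593 of 824 CpHpG calls methylated in Ler-0 (72%, 68.8–74.9%) and 12 of 292 in Col-0 (4.11%, 2.37–7.04%). In Ler-0 all its windows were high, with 66.8% in the middle, 63.6% in the first 500 bp and 63.9% past the end, whereas Col-0 had between 0.877% and 2.18% in them. At the ABCC15 end the Ler-0 library had more calls than the Col-0 library, although it was the shallower library. The cause of this was not tested. PANB2, a ketopantoate hydroxymethyltransferase of pantothenate synthesis (chr3:22771405-22771904, minus strand), had 128 of 187 calls methylated in Ler-0 (68.4%, 61.5–74.7%) and 17 of 251 in Col-0 (6.77%, 4.27–10.6%). Past its end the level was 0.581% in Ler-0 and 2.58% in Col-0, so that the methylation stopped within the gene. FUT4, a fucosyltransferase (chr2:6709116-6709615, minus strand), had 62.2% in Ler-0 and 2.52% in Col-0 with 94.8% and 30.3% CpG.

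Not every such difference reached into the gene body. AT1G47370, a TIR domain gene (chr1:17365898-17366397, minus strand), had 61.8% CpHpG at its end in Ler-0 and 2.79% in Col-0, beside 3.57% and 9.62% in the middle and 70.1% and 50.9% past the end. In Col-0 the high level thus began past the gene end and in Ler-0 it lay on both sides. The 100 bp on either side of the end show this step, with 69.0% before and 54.2% past the end of AT1G47370 in Ler-0 and 16.0% and 58.3% in Col-0. ABCC9, another transporter gene of the ABCC15 class (chr3:22223264-22223763, minus strand), had 57.9% in Ler-0 and 1.47% in Col-0 in 500 bp of 3′ UTR, with 4.60% and 3.56% in the middle and 0.985% and 3.17% past the end. Its last 100 bp had 56.2% of 338 calls methylated in Ler-0, and the next 100 bp past the end 0% of 43.

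In Col-0 the largest excess was found at AT5G28345, an uncharacterized protein gene (chr5:10317847-10318346, minus strand), with 9 of 285 calls methylated in Ler-0 (3.16%, 1.67–5.89%) and 189 of 322 in Col-0 (58.7%, 53.2–63.9%). AT5G28900, a calcium-binding EF-hand gene (chr5:10929963-10930462, plus strand), had 31.2% in Ler-0 and 86.7% in Col-0. AT5G28910, annotated as an alpha-(1,6)-fucosyltransferase (chr5:10930539-10931038, minus strand), had 23.5% and 74.7%. AT5G28900 and AT5G28910 converge, and each lies in the 500 bp past the end of the other, where AT5G28900 had 24.7% in Ler-0 and 77.1% in Col-0 and AT5G28910 24.9% and 85.4%, so they are not independent cases. YSL4, a metal-nicotianamine transporter of the yellow stripe family (chr5:16423331-16423830, plus strand), had 22 of 362 calls methylated in Ler-0 (6.08%, 4.05–9.03%) and 517 of 857 in Col-0 (60.3%, 57.0–63.5%), with 14.4% and 6.17% in the middle. The cause of the unequal number of calls at this end was not tested. Within the YSL4 end the Col-0 methylation was uneven, with 42.0% of calls at 500 to 401 bp before the end, 9.35% in the next 100 bp and 87.1% at 300 to 201 bp. AT2G40955 (chr2:17094633-17095132, plus strand), whose end is coding sequence throughout, had 11.7% in Ler-0 and 62.7% in Col-0, and its middle 0.699% and 68.1%.

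Large differences between the 500 bp before and the 500 bp past the annotated end were found in both directions. The ends with the largest excess before the end were chosen on the mean of both libraries among 4552 ends with both windows covered at that depth. AT2G41640, a glycosyltransferase family 61 gene (chr2:17363289-17363788, plus strand), had 63.5% CpHpG before and 3.87% past its end in Ler-0 and 64.8% and 1.54% in Col-0. SIR, the sulfite reductase of sulfur assimilation (chr5:1322865-1323364, plus strand), had 58.7% and 2.05% in Ler-0 and 59.9% and 1.48% in Col-0. AT1G11590, a pectin methylesterase inhibitor family gene (chr1:3894178-3894677, plus strand), had 67.3% and 19.6% in Ler-0 and 64.7% and 5.28% in Col-0. EPR1, an extensin-type cell wall protein (chr2:11715275-11715774, plus strand), had 63.5% and 4.72% in Ler-0 and 48.5% and 3.70% in Col-0. CMT1, a chromomethylase gene related to CMT3 (chr1:30346549-30347048, plus strand), had 70.4% and 1.41% in Ler-0 and 35.0% and 2.44% in Col-0, and was also among the ends called higher in Ler-0. The middle of SIR had 66.5% in Ler-0 and 14.4% in Col-0, while that of AT2G41640 had 2.45% and 2.02% and that of CMT1 3.72% and 1.52%.

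In the reverse case a gene end of low CpHpG lay beside methylated DNA. AT5G18630, an alpha/beta-hydrolase gene (chr5:6205238-6205737, plus strand) followed by a pseudogene, had 1.31% CpHpG before and 86.4% past its end in Ler-0 and 10.5% and 74.9% in Col-0. AZG1, a purine transporter gene (chr3:3424813-3425312, minus strand), had 0.741% and 79.2% in Ler-0 and 1.61% and 68.5% in Col-0, and lies in the chromosome 3 stretch. TBL15, a gene of the TRICHOME BIREFRINGENCE-LIKE family (chr2:15820812-15821311, plus strand), had 0 of 173 calls methylated before its end and 61.3% past it in Ler-0, and 1.29% and 76.8% in Col-0. NST1, a NAC transcription factor of secondary wall formation (chr2:19220725-19221224, minus strand), had 1.72% and 65.4% in Ler-0 and 1.75% and 67.4% in Col-0. AT3G28690, a protein kinase gene (chr3:10757386-10757885, plus strand), had 2.69% and 63.4% in Ler-0 and 3.67% and 70.7% in Col-0. All 5 ends were thus at or under 10.5% in both libraries beside windows of 61.3% or more. The rise did not always sit at the annotated end itself. In NST1 the first 100 bp past the end had no calls in either library, and the next 100 bp had 44.0% in Ler-0 and 62.4% in Col-0. In AZG1 the level at 101 to 200 bp past the end was 21.4% of 14 calls in Ler-0 and 4.76% of 21 in Col-0, and at 201 to 300 bp 78.9% and 70.3%.

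**Figure D5:**
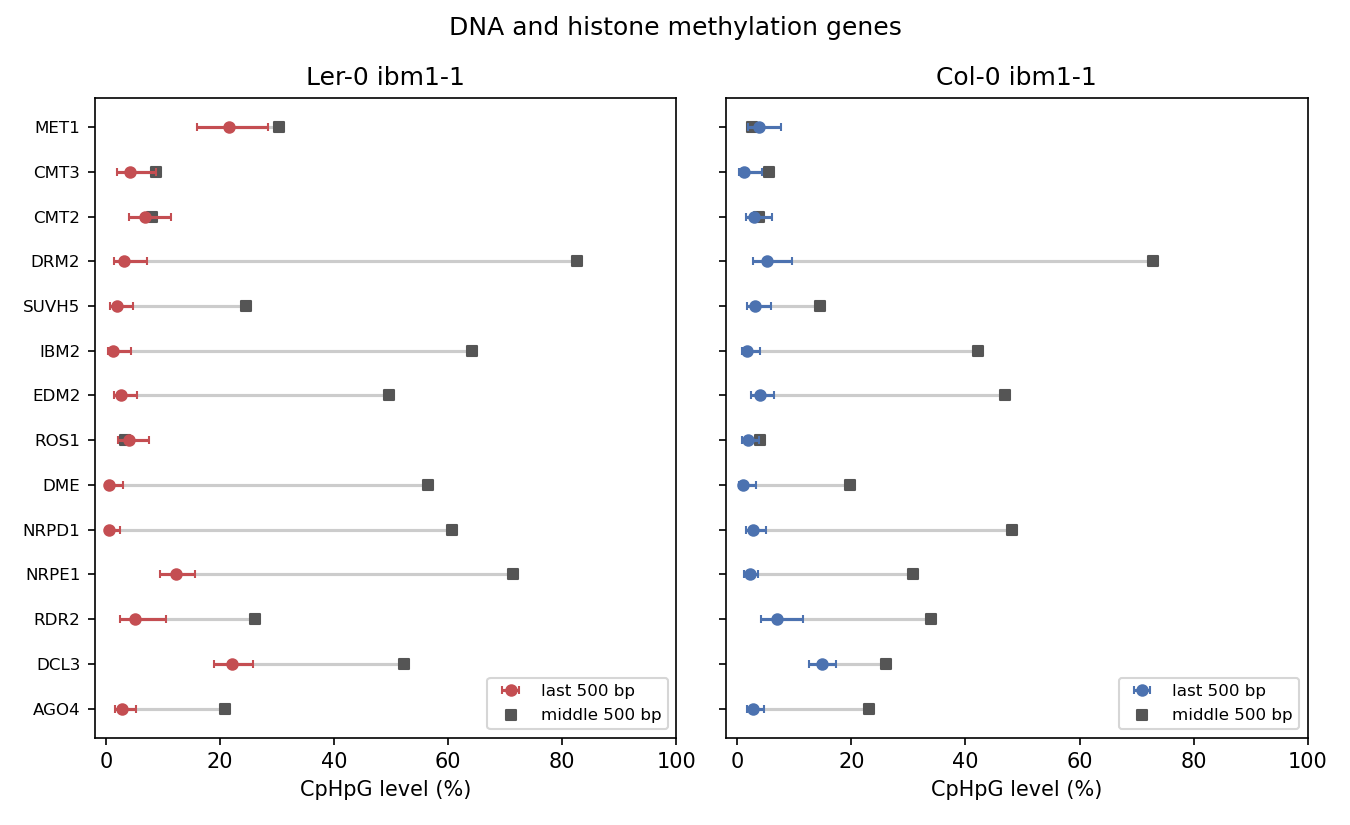
CpHpG level (%) of the last 500 bp (circles, with 95% Wilson intervals) and of the middle 500 bp (squares) of 14 genes of DNA and H3K9 methylation in Ler-0 *ibm1-1* (left) and Col-0 *ibm1-1* (right). The last 500 bp lay below the middle in 13 of the 14 genes in each library, and its highest value was 22.1% in Ler-0 and 14.8% in Col-0 (DCL3).

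Genes of DNA and H3K9 methylation mostly had an end below the middle as well. Of a list of 18, the last 500 bp and the middle were covered in both libraries for 14. The last 500 bp were lower than the middle in 13 of the 14 in each library. Over all 10018 genes they were lower in 71.7% in Ler-0 and 69.0% in Col-0. Exceptions on the list were ROS1, a DNA demethylase, in Ler-0 (4.04% against 3.32% in the middle) and MET1 in Col-0 (3.78% against 2.56%). The median of the 14 ends was 3.6% in Ler-0 and 2.88% in Col-0, and that of their middles 39.97% and 24.6%. Over all 10018 genes the medians were 2.63% and 2.45% at the end and 5.95% and 4.08% in the middle. A middle of at least 25% was found in 9 of the genes in Ler-0 and 7 in Col-0, and 5 and 4 of these had an end under 5%. Over all 10018 genes, 25.8% in Ler-0 and 17.7% in Col-0 had such a middle, and 68.7% and 70.4% of those had an end under 5%.

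DRM2, the methyltransferase of RNA-directed DNA methylation, had the highest middle of the list, 82.5% in Ler-0 and 72.9% in Col-0, beside 5 of 158 calls methylated at its end in Ler-0 (3.16%, 1.36–7.19%) and 9 of 175 in Col-0 (5.14%, 2.73–9.48%). NRPD1, the largest subunit of RNA polymerase IV, had 1 of 233 calls methylated at its end in Ler-0 (0.429%) and 10 of 368 in Col-0 (2.72%), against 60.6% and 48.2% in its middle. IBM2, a BAH domain protein needed for full-length *IBM1* transcripts, had 1.22% and 1.71% at its end against 64.2% and 42.2% in its middle. The demethylase gene DME had 0.538% and 0.926% against 56.4% and 19.7%. EDM2 had 2.64% and 3.97% against 49.7% and 47.0%, although CpG methylation of its end was 61.7% in Ler-0 and 71.7% in Col-0.

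A few genes of the list had methylated ends. KYP, whose middle was not covered under the same limits, had 89 of 266 calls methylated in Ler-0 (33.5%, 28.1–39.3%) and 115 of 348 in Col-0 (33.0%, 28.3–38.1%). This methylation lay at 500 to 401 bp before the end of KYP, with 61.0% in Ler-0 and 68.4% in Col-0, and the last 200 bp had at most 1.64% in either library. DCL3, the Dicer of heterochromatic siRNAs, had 22.1% in Ler-0 and 14.8% in Col-0, and its last 100 bp had 41.5% and 23.3%. MET1 had 35 of 163 calls methylated in Ler-0 (21.5%, 15.9–28.4%) and 7 of 185 in Col-0 (3.78%, 1.84–7.60%), with 73.3% and 3.79% CpG. NRPE1, the largest subunit of RNA polymerase V, had 12.2% (9.47–15.5%) and 2.12% (1.21–3.66%), with 0.909% and 1.53% CpG. The MET1 difference of 17.7 points and the NRPE1 difference of 10.1 points lay under the 20-point limit, with adjusted p of 3.58e-06 and 1.22e-09 by Fisher's exact test between the libraries. *IBM1* itself, in the chromosome 3 stretch, had 1.02% at its end in Ler-0 and 3.90% in Col-0. CMT3 had 4.14% and 1.19% at its end, against 8.73% and 5.60% in the middle, and the end of SUVH6 was under the read limits in Col-0.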

How the data were processed

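Whole-genome bisulfite libraries of *ibm1-1* leaves were analysed, 1 from Ler-0 and 1 from Col-0. The authors aligned Col-0 reads to TAIR10 and Ler-0 reads to a PacBio assembly of Ler-0 with Bismark, collapsed duplicates, and deposited for each cytosine the counts of methylated and unmethylated calls, with no normalization. Trimmomatic is named in the submitters' processing notes, and no tool version is given in the sources used here.

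Gene models came from RefSeq's TAIR10 annotation. The Ler-0 sequence was rebuilt from its cytosine report (unresolved A and T as 1 symbol), and each 500-bp window of Col-0 was placed with bwa 0.7.19-r1273 (mem; mapping quality at least 20, score gap at least 20, at least 400 bp aligned), which gave 14011 of 14444 gene ends a unique place (97.0%). In Ler-0 only bases aligned to the Col-0 window entered it, whereas in Col-0 all 500 bp of the window did. The cytosines of the libraries therefore differ slightly, with 329042 CpHpG cytosines in Ler-0 and 329844 in Col-0 over the 11238 ends. The level of a window is its methylated calls over all calls in a context. Depth, with means of 6.58 and 8.63 calls per cytosine in Ler-0 and Col-0, sets the 95% Wilson intervals, which cover counting error only.

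With 1 library per ecotype, no test between ecotypes was possible, and Fisher's exact test compares libraries. Named ends needed 10 or more CpHpG cytosines with 5 or more reads in each library and no overlap with a pseudogene or transposable element gene. They are the 5 with the largest excess in each library among those called, the 5 with the highest mean of both libraries, the 5 with the largest difference before or past the end, in each direction, and 18 genes of DNA and H3K9 methylation. The gene ends and lists were chosen with earlier results of these data known.

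Simulated calls for 42746 windows were drawn independently, with the same level in both libraries at unchanged windows. On these the test recovered 100% of 100 windows shifted by 50 points and 99% of 100 shifted by 30 points, with 0 false calls. Real calls on the same read are not independent, so the rate of false calls in the data is not known from this. Of 2245 windows of a mutated chromosome 4, 2237 were placed. The 12 alternatives change the read and cytosine limits, gene length, neighbouring genes, annotated end, trinucleotides, thresholds, aligner (minimap2 2.31-r1302) and depth, the correction for non-conversion and the chromosome 3 stretch. Wild-type libraries were not analysed here. Calculations used Python 3.11.15 with numpy 2.4.6, scipy 1.17.1, pandas 2.3.3 and matplotlib 3.10.9.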

Additional observations from a re-analysis of the deposited data

Results flagged for a closer look

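CpG methylation differed in sign between the libraries in a single class of gene ends. At the 146 ends followed by a pseudogene, the last 500 bp minus the 500 bp past the end was −1.78 points in Ler-0 and 0.590 points in Col-0. With 1 library per ecotype this difference was not tested.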

How the results depend on the processing

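The pooled CpHpG level of the last 500 bp stayed higher in Ler-0 than in Col-0 under each of the 10 alternatives for it. It was 9.34% in Ler-0 and 7.90% in Col-0 with at least 8 reads per cytosine, 6.14% and 5.09% in genes of 3 kb or more, 6.25% and 5.62% without another gene in either window, 6.43% and 5.42% with the end of the first listed transcript, 6.69% and 5.62% for CpApG and CpTpG only, 5.03% and 4.18% after correction for chloroplast calls, 6.48% and 5.61% without the chromosome 3 stretch, 6.26% and 5.34% with minimap2, and 6.39% and 5.49% with Col-0 thinned to the Ler-0 depth. The difference between the last 500 bp and the 500 bp past the end had no stable sign. It became 0.135 in Ler-0 with the first listed transcript, 0.0227 in Ler-0 and 0.0128 in Col-0 with minimap2, and −0.0374 and 0.00699 with at least 10 cytosines. It was −0.0611 and −0.0568 with 8 reads, −0.385 and −0.241 for CpApG and CpTpG only, −2.68 and −5.64 without another gene, and −0.216 in Col-0 in genes of 3 kb or more. The cause was not tested.

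The difference between the last and the middle 500 bp was recomputed under settings chosen after seeing the data, and stayed negative under all 10. In Ler-0 it was −19.2 with 8 reads, −17.1 with 10 cytosines and with minimap2 (−17.12 and −17.14), −25.8 in genes of 3 kb or more, −15.1 without another gene, −16.9 with the first listed transcript, −18.2 for CpApG and CpTpG only and −17.2 after the chloroplast correction. In Col-0 the same settings gave −12.9, −11.3, −11.4, −17.7, −10.3, −12 for CpApG and CpTpG only and −11.4 after the correction, and −11.2 without the chromosome 3 stretch. Ends of at least 50% CpHpG numbered 36 in Ler-0 and 24 in Col-0 in genes of 3 kb or more, 34 and 25 without another gene, and 39 in Col-0 with 8 reads. Called ends numbered 106 higher in Ler-0 and 47 higher in Col-0 with 8 reads, 68 and 26 in genes of 3 kb or more, 38 and 28 without another gene, and 19 and 19 at 40 points. Fewer ends are tested under each of these except the last. With the external cytosine at 50%, CpmCpG made up 19.5% in Ler-0 and 20.7% in Col-0 and mCpmCpG 1.38% and 1.30%. The 10 ends named for a difference between the libraries held their direction and call in all 79 values under alternatives, at 50.8 to 68.8 points. They were chosen for the largest differences, above the limits of 20 and 40 points, so this result was nearly fixed by the choice.

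The depth limits single ends most, since a window of 4 reads per cytosine has wide intervals, and levels near the chloroplast level cannot be told from incomplete conversion. Windows with more reads had higher CpHpG levels, and the part of depth in this was not tested. No paired analysis was possible because each group holds 1 library.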
